A study of Xenopus laevis with 16 samples.

Results

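Chordin and noggin are secreted proteins of the Spemann organizer, the dorsal signalling centre of the frog gastrula. Both bind bone morphogenetic proteins (BMPs) outside the cell and keep them from their receptors, and in the ectoderm this favours neural plate over epidermis. Chordin is cut by Tolloid-family proteases, which releases the bound BMP, whereas noggin is not a substrate of these proteases. In the Xenopus embryo both genes are transcribed in the organizer, below the influence of Nodal-related and maternal Wnt signals.

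The chordin and noggin transcripts were taken by name from the deposited tables, 6 of 43642 transcripts in all: chrd.1.L, chrd.2.L, nog.L, and the numbered models Xelaev18027420m, Xelaev18027421m and Xelaev18029538m, whose human symbol in the tables is CHRD. The values are RPKM (reads scaled to transcript length and to the mapped reads of the library), a level per length that can be compared between genes. The study holds 16 libraries of Xenopus laevis embryos of the Nasco strain, all collected at stage 12, the middle of gastrulation. In 14 of them the tissue was animal caps, ectoderm explanted at stage 9 that becomes epidermis when left alone. Caps came from embryos injected in early cleavage with mRNA for Wnt8 (16 pg) together with the Nodal-related factor Xnr2 (200 pg), for Xnr2 alone (200 pg), for Cerberus (400 pg), Wnt8 (16 pg), Chordin (400 pg), BMP4 (200 pg) or FGF8 (200 pg), with 1 library each. Another 3 libraries were of caps taken apart into cells, called dissociated 1 to 3, and 4 were of untreated caps, called control 1 to 4. The last 2 were a dorsal and a ventral part of embryos cut at stage 10, whole pieces of embryo with all germ layers and not caps. The labels give neither the embryos per library nor their clutches. The p-values below therefore cover the spread between these particular libraries, which may in part be technical.

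By the labels, dissociated 1, Chordin and BMP4 belong with control 1, dissociated 2 with control 2, dissociated 3, Cerberus and Wnt8 with control 3, and Wnt8 plus Xnr2, Xnr2 and FGF8 with control 4. Mapped reads per library, recovered from the RPKM values, ran from 25408440 to 46522450. Control 1 stood apart from the other controls: as a mean of log2(RPKM + 1), its epidermal markers were at 5.16 and those of controls 2 to 4 at 7.27 to 7.75, while its neural plate markers were at 3.98 and theirs at 2.46 to 2.90. Calls of chordin and noggin that change when it is left out are named. Calls that other named genes gained without it were not counted.

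The 2 chrd names carried reads only in control 4, Xnr2, and Wnt8 plus Xnr2. In the 6 control and dissociated libraries of the unfiltered table they were listed at 0, and in the same way the numbered models Xelaev18027420m and Xelaev18027421m had no entry in control 4 and its treated libraries. The lengths that made RPKM values into whole reads paired the names. Xelaev18027420m and chrd.1.L both gave 3497 bases, a length shared by 3 transcripts in the tables, and Xelaev18027421m and chrd.2.L both gave 3332 bases, shared by 5. Xelaev18029538m gave 4109 bases and was listed under its number throughout, and nog.L gave 1842 bases. In RefSeq's current annotation chrd.1.L and chrd.2.L are neighbours with 0 genes between them, and the other chordin symbol there is chrd.1.S. No source used here links Xelaev18029538m to chrd.1.S or the other numbers to the L names, so the pairing by length is an inference. Below, chordin model 1 is Xelaev18027420m together with chrd.1.L, chordin model 2 is Xelaev18027421m together with chrd.2.L, and chordin model 3 is Xelaev18029538m. How reads were divided among such similar copies is not given in the sources used here, so differences between chordin models are uncertain.

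In untreated caps all 4 rows were close to the bottom of the scale. Chordin model 1 had 0.0199, 0.0891, 0.0123 and 0.0702 RPKM in controls 1 to 4, which is between 2 and 12 reads a library. Chordin model 2 had 0.0209, 0.0545, 0.0258 and 0.123 RPKM in the same libraries. Chordin model 3 had 0.661, 0.158, 0.136 and 0.285 RPKM, so control 1 was its highest control. Noggin nog.L had 0.227, 0.296, 0.198 and 0.207 RPKM (0.232 ± 0.0441, SD, n = 4). Relative to its mean this was the narrowest spread of the 4 rows among controls, while in RPKM chordin model 1 had a smaller SD, 0.0376. Summed over the 3 models, chordin averaged 0.414 ± 0.229 RPKM in controls (SD, n = 4), 1.82 ± 1.06 times nog.L in the same library.

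**Figure D1:**
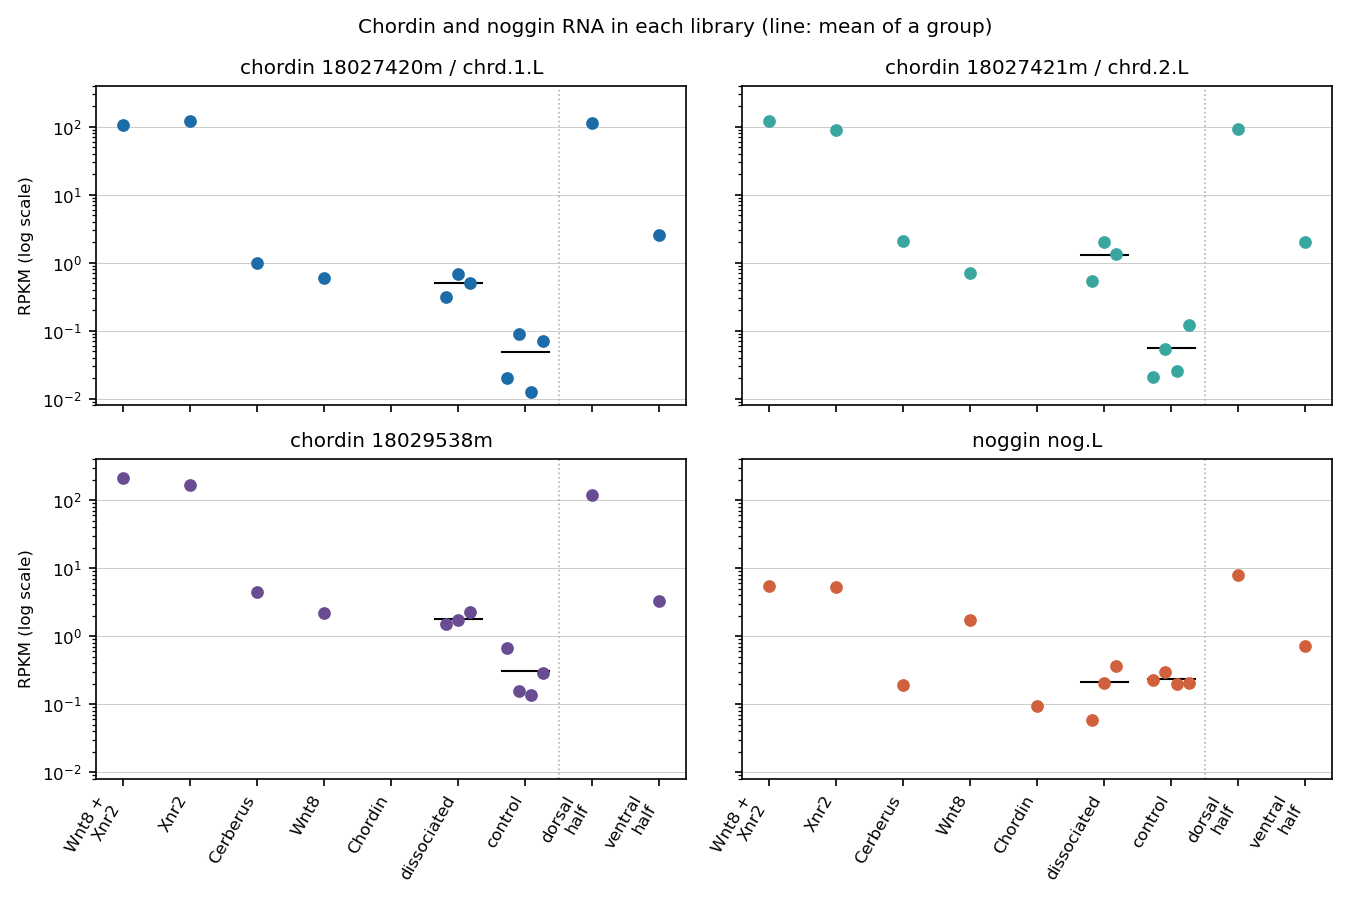
RPKM on a log axis of each chordin model and of nog.L in each library, 1 point per library, with a black line at the mean where a group has several libraries. Caps stand left of the dotted line and embryo parts right of it. The Wnt8 plus Xnr2, Xnr2 and dorsal points of the chordin models lie between 90.6 and 212 RPKM, and every control point lies under 1. Chordin is not drawn in the library injected with Chordin mRNA.

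Xnr2, a Nodal ligand that induces dorsal mesoderm in caps, gave the strongest chordin and noggin signals among the cap libraries, alone or with Wnt8. In this ranking chordin is set aside in the caps injected with Chordin mRNA. Chordin model 1 had 106 RPKM in Wnt8 plus Xnr2 caps and 124 in Xnr2 caps, against 0.0702 in their own control 4. Chordin model 2 had 124 RPKM in Wnt8 plus Xnr2 caps and 90.6 in Xnr2 caps, against 0.123 in control 4. Chordin model 3 had 212 RPKM in Wnt8 plus Xnr2 caps and 169 in Xnr2 caps, against 0.285 in control 4. Noggin nog.L had 5.48 RPKM in Wnt8 plus Xnr2 caps and 5.22 in Xnr2 caps, against 0.207 in control 4. Neither treated library overlapped the 4 controls in any of these rows. How many of all transcripts lay outside the range of the controls was not counted.

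Each treated library was tested against all 4 controls with limma on log2(RPKM + 1). With 1 treated library, its spread is taken to equal that of the control and dissociated groups. In Xnr2 caps, 545 of 14769 transcripts tested (3.69%) rose at a Benjamini-Hochberg adjusted p under 0.05. Chordin model 3 rose by 7.04 ± 0.33 (SE) on this scale, with an adjusted p of 4.37e-06 from limma. Noggin rose by 2.34 ± 0.20 (limma adjusted p = 0.000133). In Wnt8 plus Xnr2 caps, 525 of 14988 transcripts tested (3.5%) rose. Chordin model 3 rose there by 7.36 ± 0.33 (limma adjusted p = 3.31e-06) and nog.L by 2.40 ± 0.20 (limma adjusted p = 0.000118). Tested transcripts had to average 1 RPKM between a treated library and its matched control, and both rows passed only through the treated library. The noggin call was lost in a fit that used recovered reads with the matched control set as a block (limma voom), with adjusted p = 0.0728 in Xnr2 caps and 0.0676 in Wnt8 plus Xnr2 caps.

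The other chordin models could be tested only after their names were joined by length. In that fit, made after the values were seen, model 1 rose by 6.90 ± 0.24 in Xnr2 caps and model 2 by 6.44 ± 0.35, with limma adjusted p of 1.24e-06 and 8.92e-06. In Wnt8 plus Xnr2 caps model 1 rose by 6.68 ± 0.24 and model 2 by 6.88 ± 0.36, with limma adjusted p of 1.31e-06 and 6.29e-06. Both joined rows, too, passed the filter only through the treated library. The log2(RPKM + 1) scale understates ratios for transcripts near 0. As plain RPKM ratios of Xnr2 caps to control 4, model 1 was 1767-fold (95% interval 930 to 3864), model 2 737-fold (447 to 1318) and model 3 593-fold (440 to 820), while nog.L was 25.2-fold (14.8 to 46.6). These intervals are exact binomial ones on recovered reads and cover counting error only.

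**Figure D2:**
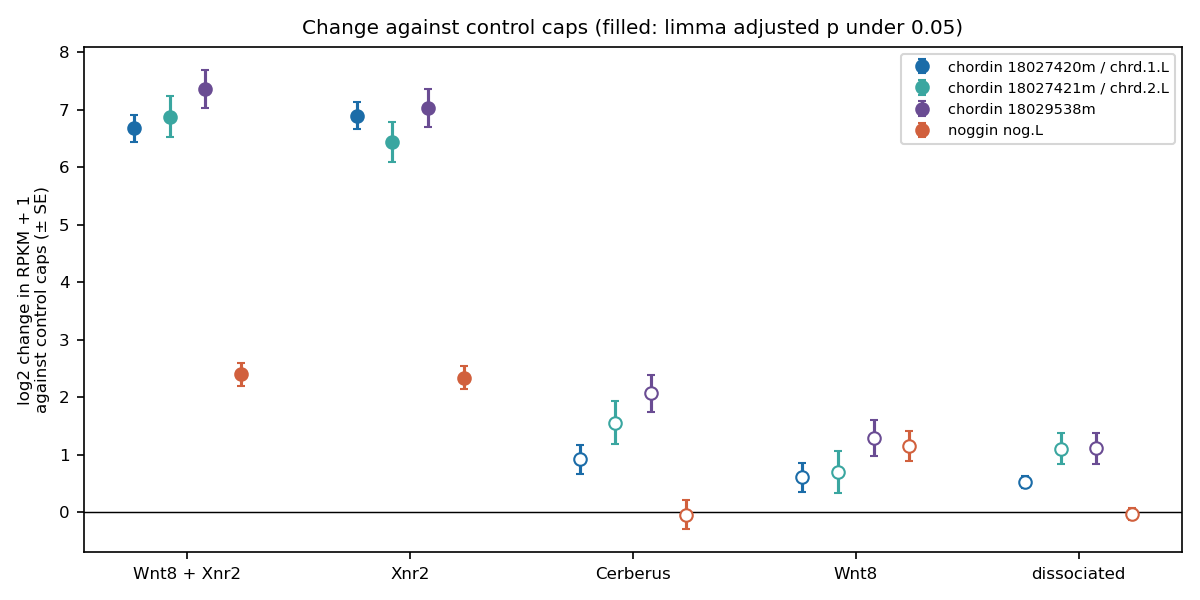
Change on the log2(RPKM + 1) scale against control caps with its standard error, for the 3 chordin models and nog.L. Filled points have a limma adjusted p under 0.05. In Wnt8 plus Xnr2 and Xnr2 caps all points are filled, nog.L at 2.40 and 2.34 and the chordin models between 6.44 and 7.36. All points in Cerberus, Wnt8 and dissociated caps are open. Models 1 and 2 come from the fit with joined names. In Cerberus, Wnt8 and dissociated caps, models 1 and 2 and nog.L are drawn from the fit without a filter. Model 2 in Cerberus caps passed the filter but is drawn from that fit too.

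Wnt8 added to Xnr2 went with little difference in any of these rows, in a comparison of 1 library with 1 that has no replicate check. The ratio of Wnt8 plus Xnr2 caps to Xnr2 caps was 0.857 for chordin model 1 (95% counting interval 0.836 to 0.879), 1.36 for model 2 (1.33 to 1.40) and 1.25 for model 3 (1.23 to 1.27). For nog.L it was 1.05 (0.896 to 1.23). Models 1 and 2 thus lay on opposite sides of equality, outside counting error, and nog.L within it. Scaling both libraries to the same median lowered the log2 values of this comparison by 0.13. A transcript was called here when RPKM + 1 differed 4-fold or more and the larger value reached 5 RPKM. This held for 36 of 15376 transcripts (0.234%) and for none of the 4 rows. The organizer and axial mesoderm list takes in crx copies by their human symbol, OTX2. In it 7 of 17 were called, all with more in Wnt8 plus Xnr2 caps. One of them, cer1.S, the BMP, Nodal and Wnt antagonist Cerberus, had 102 RPKM in Wnt8 plus Xnr2 caps and 10.4 in Xnr2 caps. The Wnt antagonist frzb.L had 23.8 RPKM in Wnt8 plus Xnr2 caps and 2.38 in Xnr2 caps, and admp.L, a BMP ligand of the organizer, 26.7 RPKM in Wnt8 plus Xnr2 caps and 4.45 in Xnr2 caps. The largest difference in the list was that of crx.L, with 63.6 RPKM in Wnt8 plus Xnr2 caps and 5.37 in Xnr2 caps. Of 30 BMP targets 3 were called, all with less in Wnt8 plus Xnr2 caps: the homeobox genes msx1.L, msx1.S, with 5.67 RPKM in Wnt8 plus Xnr2 caps and 30.6 in Xnr2 caps, and msx2.L, with 3.59 RPKM in Wnt8 plus Xnr2 caps and 17.9 in Xnr2 caps.

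In whole embryo parts chordin and noggin were high dorsally, where the organizer lies. Chordin model 1 had 114 RPKM in the dorsal library and 2.53 in the ventral one. Chordin model 2 had 92.9 RPKM in the dorsal library and 2.04 in the ventral one, and model 3 had 120 RPKM in the dorsal library and 3.33 in the ventral one. Noggin nog.L had 7.97 RPKM in the dorsal library and 0.705 in the ventral one. The dorsal level of nog.L was its highest in the study. In the ventral library, too, each row was above all 4 control caps. The share of all transcripts above all 4 was not counted.

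The dorsal over ventral ratio was 45.2 for chordin model 1 (95% counting interval 39.6 to 51.8), 45.5 for model 2 (39.1 to 53.2) and 36.1 for model 3 (32.4 to 40.3). For nog.L it was 11.3 (7.92 to 16.6), below the interval of every chordin model. Dorsal RNA thus exceeded ventral RNA for all 4 rows, and by the same rule of 4-fold and 5 RPKM they were among 66 of 14996 transcripts (0.44%) called higher. All 4 rows reached 5 RPKM only in the dorsal library, so their place among those called is a description. With 1 library on each side there is no test. Chordin in Xnr2 caps was close to the dorsal level: their ratio was 1.08 for model 1 (1.06 to 1.11), 0.975 for model 2 (0.946 to 1.00) and 1.41 for model 3 (1.38 to 1.44). For nog.L, Xnr2 caps had 0.655 times the dorsal level (0.561 to 0.764). In bulk samples such as these, fewer expressing cells and less RNA per cell cannot be told apart.

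**Figure D3:**
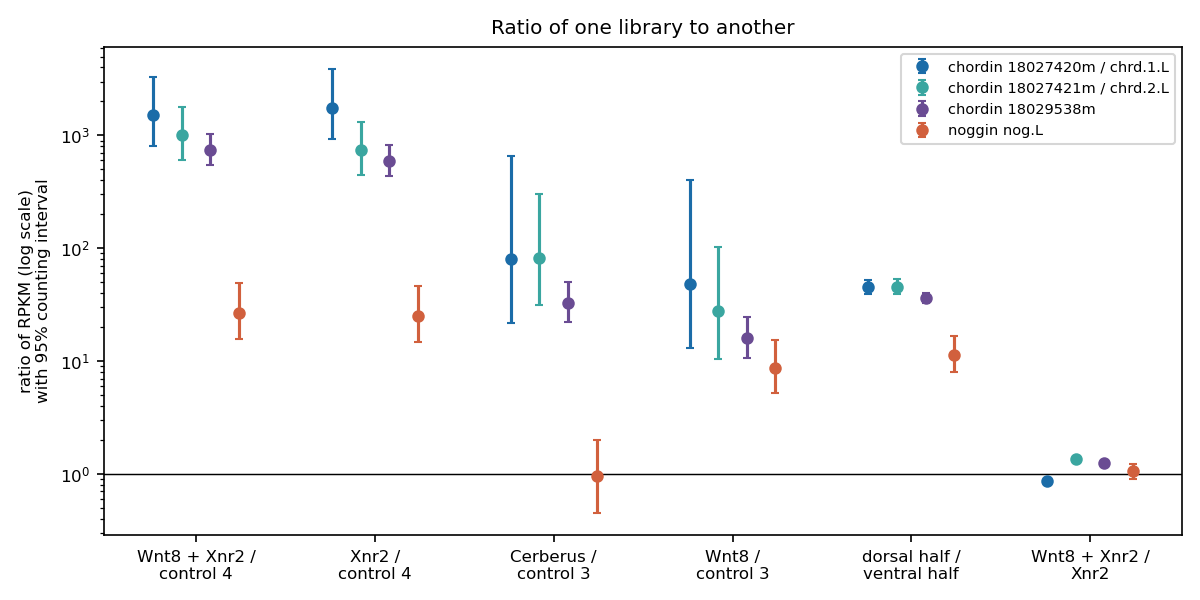
Ratio of RPKM between pairs of libraries on a log axis, with the 95% counting interval, for each chordin model and nog.L. For Wnt8 plus Xnr2 and for Xnr2 over control 4, for Cerberus over control 3 and for dorsal over ventral, nog.L lies below the intervals of the chordin models. All Wnt8 plus Xnr2 over Xnr2 ratios lie between 0.857 and 1.36.

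Caps that were only dissociated, with no mRNA injected, had more chordin reads than controls in all 3 matched pairs, but no row was called. Dissociation breaks contacts between cap cells, dilutes secreted ligands, and is known to turn caps toward neural fate. Chordin model 1 had 0.309, 0.678 and 0.505 RPKM in dissociated 1 to 3, against 0.0199, 0.0891 and 0.0123 in controls 1 to 3. Chordin model 2 had 0.541, 1.99 and 1.36 RPKM in dissociated caps, against 0.0209, 0.0545 and 0.0258 in controls. Chordin model 3 had 1.52, 1.70 and 2.23 RPKM in dissociated caps, against 0.661, 0.158 and 0.136 in controls. In all 3 models every dissociated library was above every control. How many of all transcripts separate in this way was not counted, so the separation is only a description. Noggin nog.L had 0.0587, 0.204 and 0.368 RPKM in dissociated caps, against 0.227, 0.296 and 0.198 in controls, and the groups overlapped.

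Of 15819 transcripts tested for dissociation, 23 (0.145%) rose in limma and 50 (0.316%) were called in all, a count that ran from 0 without control 3 or dissociated 2 to 374 without control 1. With the matched control set as a block, which pairs the libraries, it was 239. Only chordin model 3 averaged 1 RPKM over the 6 libraries, and its difference of 1.11 ± 0.27 on the log2(RPKM + 1) scale did not pass (limma adjusted p = 0.180). With the block the difference was 1.11 ± 0.25, again without a call (limma adjusted p = 0.100). Voom on recovered reads with the block gave 2.79 ± 0.61 (limma voom adjusted p = 0.0745). Without the filter, models 1 and 2 differed by 0.52 and 1.10 and nog.L by -0.04, with limma adjusted p of 0.385, 0.495 and 1. Adding the block to this fit gave limma adjusted p of 0.404 and 0.462 for models 1 and 2. A two-sided exact permutation test of each row by itself gave p = 0.1 for each chordin model, the smallest value that 3 libraries against 3 allow, and p = 0.8 for nog.L. Within matched pairs the smallest chordin ratio was 2.30 (95% counting interval 1.75 to 3.04), for model 3 in dissociated 1 over control 1, the control in which that model was highest. The sum of chordin models was 24.3 ± 14.8 times nog.L in dissociated caps (SD, n = 3), and the 3 values, 40.3, 21.4 and 11.1, were all above the highest control, 3.09. They rest on 3, 10 and 20 reads of nog.L. In dissociated 1 the counting interval of model 3 alone over nog.L, per base, ran from 8.70 to 127. Other noggin copies are not in these ratios. How often other pairs of transcripts separate in this way was not counted.

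Marker lists moved alongside. The 7 neural plate markers listed in every library had a mean log2(RPKM + 1) of 5.33 to 6.46 in dissociated caps and of 2.46 to 3.98 in controls. For the 8 epidermal markers the mean was 1.47 to 5.20 in dissociated caps and 5.16 to 7.75 in controls. Notochord and dorsal mesoderm markers summed to 9.38 to 35.5 RPKM in dissociated caps and 18.1 to 35.3 in controls, with 2 to 5 and 2 to 3 of 11 at 1 RPKM or more. Members of that list went different ways. The goosecoid copy gsc.L had 3.57, 5.78 and 3.76 RPKM in dissociated 1 to 3, against at most 0.250 in controls, and gsc.S 0.136, 1.45 and 10.4 RPKM in dissociated 1 to 3, against 0.0263 to 1.47 in controls. The forkhead gene foxa4.L had 0.497, 6.68 and 0.252 RPKM in dissociated 1 to 3, against 0.0185 to 0.165 in controls. The brachyury copies t.L and t.S stayed under 1 RPKM in all 7 libraries. Muscle markers summed to 1.43, 19.7 and 4.46 RPKM in dissociated 1 to 3 and to 0.468 to 1.25 in controls. Their part in the chordin values was not tested. In Xnr2 and Wnt8 plus Xnr2 caps the notochord and dorsal mesoderm list summed to 1267 and 1706 RPKM. Its largest members in Xnr2 caps were the brachyury copies t.S, t.L and t2.S, at 538, 332 and 169 RPKM, and neither gsc copy was listed there. The same list summed to 649 RPKM in the dorsal library and 703 in the ventral one, so this sum does not set dorsal tissue apart. The muscle list summed to 820 and 915 RPKM in Xnr2 and Wnt8 plus Xnr2 caps. Only 6 of its 10 markers were listed in these caps, where low transcripts are dropped.

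Cerberus binds BMP, Nodal and Wnt ligands, and caps injected with its mRNA had more chordin reads than their own control, with nog.L within counting error of it. Chordin model 1 had 0.979 RPKM in Cerberus caps, against 0.0123 in their own control 3. Chordin model 2 had 2.11 RPKM in Cerberus caps, against 0.0258 in control 3, and model 3 had 4.43 RPKM in Cerberus caps, against 0.136 in control 3. Noggin nog.L had 0.189 RPKM in Cerberus caps and 0.198 in control 3, a ratio of 0.955 (95% counting interval 0.451 to 2.01). For the chordin models the ratios to control 3 were 79.6 (21.7 to 663), 81.7 (31.6 to 302) and 32.6 (22.1 to 50.2). No row was called against the 4 controls, where 12 of 15941 transcripts (0.0753%) were called and 11 (0.069%) rose. Chordin model 3 differed by 2.07 ± 0.32 (limma adjusted p = 0.122) and model 2, as deposited, by 1.59 ± 0.39 (limma adjusted p = 0.714). Without control 1, the highest control for model 3, its difference was 2.19 and was called (limma adjusted p = 0.0245), while without each other control the adjusted p was 0.307 to 0.406. Neural plate markers had a mean log2(RPKM + 1) of 5.89 in Cerberus caps and 2.67 in control 3, and their part in the chordin values was not tested.

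Wnt8 alone gave a different mixture. Noggin nog.L had 1.73 RPKM in Wnt8 caps, 8.71 times the 0.198 of control 3 (95% counting interval 5.24 to 15.4) and above all 4 controls. How many of all transcripts in this 1 library lay above all 4 was not counted. Chordin model 1 had 0.595 RPKM in Wnt8 caps, against 0.0123 in control 3. Chordin models 2 and 3 had 0.711 and 2.16 RPKM in Wnt8 caps, against 0.0258 and 0.136 in control 3. Again no row was called, with 12 of 15823 transcripts (0.0758%) rising in this comparison. Model 3 differed from the 4 controls by 1.29 ± 0.31 (limma adjusted p = 0.822). Noggin, too low for the filter, differed by 1.15 ± 0.26 without it (limma adjusted p = 0.849).

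Wnt8 and Cerberus caps, which share control 3, stood in opposite order for the 2 genes. Noggin in Wnt8 caps was 9.12 times that in Cerberus caps (95% counting interval 5.41 to 16.4). Chordin in Wnt8 caps was 0.608 (0.462 to 0.795), 0.337 (0.267 to 0.424) and 0.488 (0.430 to 0.552) times that in Cerberus caps for models 1 to 3. The summed chordin level was 2.01 times nog.L in Wnt8 caps and 39.7 times in Cerberus caps. Each side is 1 library, so these intervals compare the libraries and not the treatments.

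**Figure D4:**
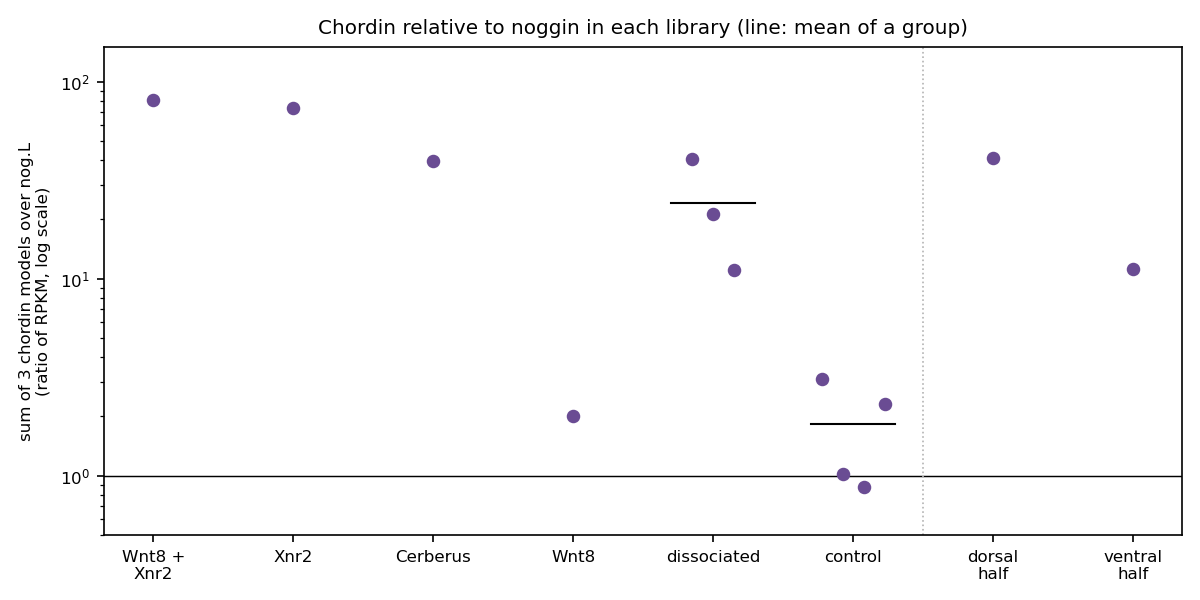
Sum of the 3 chordin models over nog.L, as a ratio of RPKM on a log axis, in each library, with a line at the mean of a group. Wnt8 caps, at 2.01, lie within the range of controls, 0.878 to 3.09. Every other library drawn lies at 11.1 or above, up to 80.5 in Wnt8 plus Xnr2 caps. The point of dissociated 1 rests on 3 reads of nog.L.

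In the remaining injected caps little can be said of these genes. No row was listed in the BMP4 or FGF8 tables, whose lowest mean over a library and its control was 1.00 RPKM. For nog.L, with 0.227 RPKM in control 1 and 0.207 in control 4, a mean under 1 RPKM leaves at most 1.77 RPKM in BMP4 caps and 1.79 in FGF8 caps. For chordin model 3 the same limits are 1.34 and 1.71 RPKM. In caps injected with Chordin mRNA, model 3 had 2581 RPKM, and chordin values of that library were set aside. Noggin there had 0.0936 RPKM, against 0.227 in control 1, a ratio of 0.413 (95% counting interval 0.114 to 1.26), and without the filter its difference from the 4 controls was -0.17 ± 0.25 (limma adjusted p = 0.956).

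With the library injected with Chordin mRNA set aside for chordin, each chordin model, ordered by level, ran high in the Wnt8 plus Xnr2, Xnr2 and dorsal libraries, then in ventral or Cerberus tissue, then in Wnt8 and dissociated caps, and lowest in controls. In all 3 models the Wnt8 value fell inside the range of the dissociated libraries. Ventral and Cerberus tissue were neighbours for model 2, at 2.04 and 2.11 RPKM. For nog.L the order was dorsal, Wnt8 plus Xnr2, Xnr2, Wnt8 and ventral, with Cerberus, Chordin, dissociated and control caps all at 0.368 RPKM or less. Wnt8 plus Xnr2 and Xnr2 were neighbours whose nog.L levels did not differ beyond counting error. Among those lowest libraries, the Cerberus value of nog.L lay within the dissociated range.

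The balance between the first chordin models also varied by library. Per base, model 1 over model 2 was 1.37 in Xnr2 caps (95% counting interval 1.33 to 1.41), 1.23 in the dorsal library (1.20 to 1.27) and 1.24 in the ventral one (1.01 to 1.52). It was 0.860 in Wnt8 plus Xnr2 caps (0.840 to 0.881) and 0.837 in Wnt8 caps (0.620 to 1.13). Lower ratios came from Cerberus caps, at 0.465 (0.381 to 0.564), and from dissociated 1 to 3, at 0.572 (0.351 to 0.917), 0.341 (0.252 to 0.457) and 0.370 (0.263 to 0.513). Model 2 thus had the more reads per base in all 3 dissociated libraries and in Cerberus and Wnt8 plus Xnr2 caps, and model 1 in Xnr2 caps and both embryo parts. In controls the counts were too few to place the ratio, with 2 reads of each model in control 1. Model 3 was the highest of the 3 per base in every library where chordin was measured, except dissociated 2, where it had 0.857 times model 2 (0.694 to 1.06). Its excess over model 1 was 1.05 in the dorsal library (1.02 to 1.08) and 4.53 in Cerberus caps (3.81 to 5.40).

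**Figure D5:**
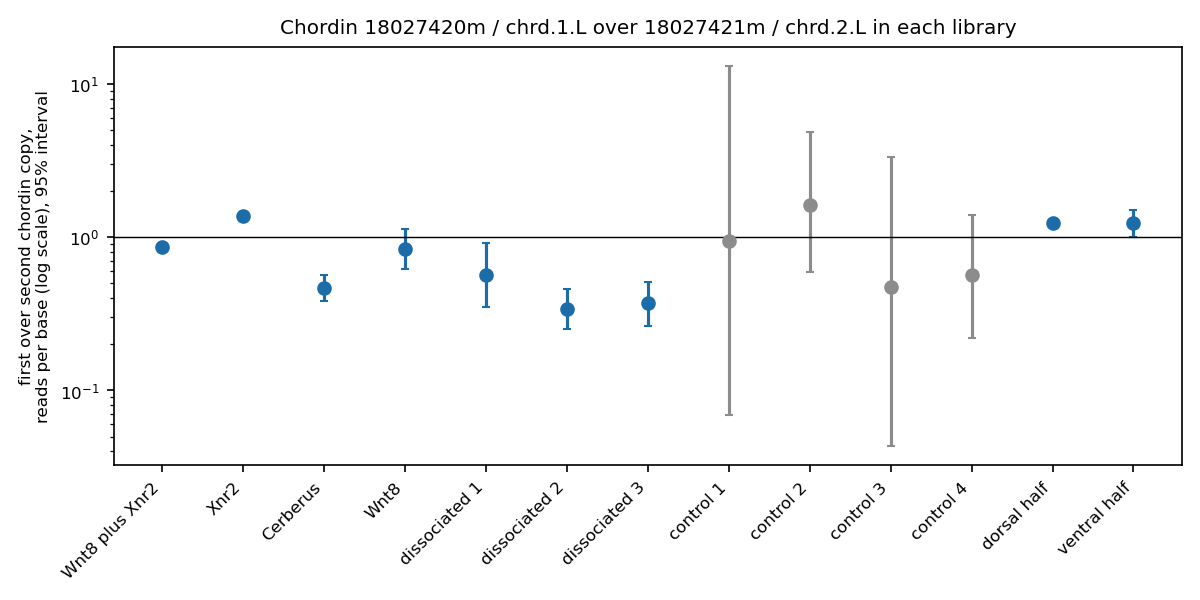
Reads per base of chordin model 1 over model 2 in each library, on a log axis with the 95% counting interval, treated libraries left of grey controls and embryo parts at the right. Xnr2, dorsal and ventral intervals lie above 1, and Wnt8 plus Xnr2, Cerberus and dissociated intervals below it. Wnt8 and control intervals cross 1.

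Across the 13 libraries with all rows, leaving out the one injected with Chordin, log2(RPKM + 1) of the chordin models correlated with one another at Pearson r of 0.987 to 0.994, and with nog.L at 0.931 to 0.951. These coefficients describe a pattern set largely by the Wnt8 plus Xnr2, Xnr2 and dorsal libraries and share each library's depth. The transcripts most like nog.L over its 14 libraries, among 11299 that reached 5 RPKM somewhere, were eomes.L, a T-box factor of early mesoderm, at r = 0.942, Xelaev18003342m at 0.935, the hemicentin models Xelaev18003341m (HMCN2) at 0.924 and Xelaev18003609m (HMCN1) at 0.922, and lhx1.S, an organizer homeobox gene, at 0.920. For Xelaev18027420m, over the 10 libraries that list it, which lack Xnr2 and Wnt8 plus Xnr2 caps, they were fst.L (follistatin, an activin and BMP antagonist) at 0.988, admp.L at 0.985, Xelaev18027421m at 0.983, the laminin gene lama1-like.L at 0.978 and admp.S at 0.975. For Xelaev18027421m, over the same 10 libraries, they were Xelaev18029538m at 0.985, Xelaev18027420m at 0.983, admp.L at 0.982, fst.L at 0.959 and admp.S at 0.958. In these 10 libraries Xelaev18027420m had 114 RPKM in the dorsal one and at most 2.53 elsewhere. Xelaev18027421m had 92.9 RPKM in the dorsal one and at most 2.11 elsewhere. Coefficients over the 10 thus rest largely on that 1 library. The transcripts most like Xelaev18029538m, over 13 libraries, were the netrin model Xelaev18047672m (NTN1) at 0.967, lama1-like.L at 0.966, pnp.L at 0.960, and the muscle regulators myf5.L at 0.954 and myf5.S at 0.953. With names joined and 13 libraries, those most like model 1 beside the other chordin models were lama1-like.L at 0.983, myf5.L at 0.973 and myf5.S at 0.970, and those most like model 2 were pnp.L at 0.973, lama1-like.L at 0.973 and Xelaev18047672m at 0.969. Candidates needed a value in every library used. The antagonist fst.L and admp.S had none in Xnr2 caps, so with names joined they could not be ranked. For admp.L, which could be, the rank was then no longer among the 5 most alike. For chrd.1.L and chrd.2.L, over 11 libraries of which 3 have reads, 3 of the 5 most alike in each case had themselves no read in the 6 libraries of the unfiltered table. For chrd.1.L these were led by Xetrov90014037m.L at 1.00, followed by sfrp1.L, kif26a-like.L, hoxa10.L and foxd4l1.2.L. For chrd.2.L they were pcdh8.2.S, myf5.S, hes7-2.L, foxd4l1.1.L and Xelaev18002266m.

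Among other noggin names, nog.S was listed at 0 in all 6 control and dissociated libraries of the unfiltered table and had no value elsewhere. Such a 0 need not mean absent RNA. In control 4, 969 names without a read in those 6 libraries had reads, the chrd names among them. A further transcript of human symbol NOG, nog.1, had 0.113, 0.757 and 0.363 RPKM in dissociated 1 to 3, against 0.219, 0.0979 and 0.0811 in controls 1 to 3, and had no value in the other libraries. Its groups overlapped. The copy nog4.S was listed at 0 in dissociated 1 to 3 and had 0.0406, 0.363 and 0.201 RPKM in controls 1 to 3, so that its groups did not overlap. The share of all transcripts without overlap was not counted. The copies nog2.L, nog2.S and nog4.L had at most 0.140 RPKM in dissociated caps and 0.0247 in controls.

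Of 45 transcripts of other BMP antagonists and BMP-binding proteins, 6 were high enough to test in Xnr2 caps and 3 of them rose, beside 3.69% of all transcripts tested. Those 3 passed the filter only through the Xnr2 library, so their count is a description. They were fstl1.S, a secreted follistatin-like protein, with 57.7 RPKM in Xnr2 caps and 0.998 ± 0.901 in controls (SD, n = 4), cer1.S with 10.4 RPKM in Xnr2 caps and 0.109 ± 0.166 in controls, and fstl1.L with 1.78 RPKM in Xnr2 caps and 0.326 ± 0.164 in controls. The call of fstl1.L (limma adjusted p = 0.0433) was lost when any 1 control was left out, at adjusted p of 0.0523 to 0.0847. In Wnt8 plus Xnr2 caps 4 of 8 tested rose, beside 3.5% of all transcripts, and again passed only through the treated library: cer1.S, fstl1.S, cer1.L and fst.L. Follistatin fst.L had 2.61 RPKM in Wnt8 plus Xnr2 caps, against 0.0737 ± 0.0577 in controls. Between embryo parts fst.L alone of 11 was called, with 10.1 RPKM in the dorsal library and 0.586 in the ventral one, where 0.44% of all transcripts were called higher dorsally. It reached the 5 RPKM of the rule only in the dorsal library. No transcript of this list was called in dissociated, Wnt8, Chordin or FGF8 caps. In Cerberus caps 1 of 6 was, cer1.S, the injected gene itself, and in BMP4 caps 1 of 6, sostdc1.S, where 0.43% of all transcripts tested were called. Here, too, cer1.S and sostdc1.S passed the filter only through the treated library. Of all transcripts, 0.168% were called in FGF8 caps, 0.316% in dissociated, 0.0758% in Wnt8, 0.0753% in Cerberus and 0.0% in Chordin caps.

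Chordin proteases and modulators include the Tolloid-family genes and sizzled (szl), a secreted inhibitor of those proteases. None was called in any comparison with control caps, with 12 or 13 tested each time. Of all transcripts, 3.69% rose in Xnr2 caps and 3.5% in Wnt8 plus Xnr2 caps, and at most 0.43% were called in each other comparison. At such shares, no call among 12 or 13 says little about this list. Between embryo parts 1 of 11 tested was called higher dorsally and 2 lower, beside 0.44% and 0.267% of all transcripts. The lower ones were szl.L, with 32.0 RPKM in the dorsal library and 328 in the ventral one, and szl.S, with 20.7 RPKM in the dorsal library and 176 in the ventral one. This was the opposite order to chordin and noggin. The Wnt antagonist sfrp2.L, in the list by its own name, had 10.5 RPKM in the dorsal library and 1.00 in the ventral one. It reached the 5 RPKM of the rule only in the dorsal library.

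Among BMP ligands, receptors and Smads, admp.L rose in Xnr2 caps, with 4.45 RPKM there and 0.0466 ± 0.0501 in controls (SD, n = 4). It rose by 4.73 ± 0.31 in Wnt8 plus Xnr2 caps (limma adjusted p = 2.44e-05), where admp.S rose as well. The admp copies passed the filter only through the treated libraries. A numbered BMP7 model, Xelaev18018155m, fell in both, to 95.5 RPKM in Wnt8 plus Xnr2 caps and 84.6 in Xnr2 caps, against 357 ± 112 in controls, and in Cerberus caps to 39.8 RPKM. It had 88.3, 92.2 and 97.2 RPKM in dissociated 1 to 3, 75.0 in Chordin caps and 99.3 in Wnt8 caps, against 216 to 461 in controls, without a call there. All of these values lay below the lowest control. How many other transcripts did so was not counted. The calls were lost without control 3 in Xnr2 caps (limma adjusted p = 0.0531), and without control 2, 3 or 4 in Wnt8 plus Xnr2 and in Cerberus caps (0.0598 to 0.169). In all, 1 of 15 tested rose and 1 fell in Xnr2 caps, and 2 of 16 rose and 1 fell in Wnt8 plus Xnr2 caps, where 0.447% and 0.24% of all transcripts tested fell. In dissociated caps 0 of 21 were called without the block, beside 0.316% of all transcripts. Calls of this list with the block were not counted. Between embryo parts the 2 admp copies were called, of 24 tested, beside 0.44% of all transcripts called higher dorsally. The copy admp.L had 28.5 RPKM in the dorsal library and 0.736 in the ventral one. Both admp copies reached the 5 RPKM of the rule only in the dorsal library.

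BMP targets, genes switched on by BMP signals, had medians below 0 in dissociated caps and in all injected caps except those with BMP4. In caps without injected BMP4 only 1 passed the test. At the shares of all transcripts called, given beside, 0 or 1 call in a list of this size says little. In dissociated caps, fitted without the block, the median of 30 targets was -2.64 on the log2 scale with 0 called, beside 0.316% of all transcripts. With the block 239 of 15819 transcripts were called there, and how many were targets was not counted. In Cerberus caps the median was -2.05 over 29 with 0 called, beside 0.0753%. In Wnt8 plus Xnr2 caps it was -2.49 over 27 with 0 called, where 3.5% of all transcripts rose and 0.24% fell. In Wnt8 caps it was -0.47 over 30 and in FGF8 caps -0.21 over 27, with 0 called in each, beside 0.0758% and 0.168%. In Xnr2 caps the median was -1.35 over 27, and the single call was upward, where 3.69% of all transcripts tested rose and 0.447% fell. The call was msx2.S, at 40.5 RPKM in Xnr2 caps and 1.62 ± 0.216 in controls (SD, n = 4). For all transcripts tested the medians were between -0.14 and 0.10 in these comparisons. In caps injected with Chordin mRNA the median of 29 targets was -3.21, beside 0.05 for all transcripts, with 0 called. That comparison called 0 of 15583 transcripts (0.0%) in limma, with 458 at an unadjusted p under 0.05, and limma voom on recovered reads called 2. Without control 1, the control with the fewest epidermal marker reads, it called 75. Between embryo parts 3 of 30 targets were called, all lower dorsally, as were 0.267% of all transcripts: szl.L, szl.S and dlx3.S, the last with 14.9 RPKM in the dorsal library and 64.5 in the ventral one.

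Of 34 organizer and axial mesoderm transcripts, 19 were high enough to test in Xnr2 caps. In them 10 rose and 2 fell, where 3.69% of all transcripts tested rose and 0.447% fell. The 10 passed the filter only through the Xnr2 library, so their count is a description. The list was matched by name or human symbol, which brought in mix1 and crx copies as OTX2. The copies mix1.L and mix1.S, also in the endoderm marker list, rose here and in Wnt8 plus Xnr2 caps. They had 40.2 and 30.8 RPKM in the ventral library, against 9.73 and 16.6 in the dorsal one. The forkhead gene foxa4.L had 107 RPKM in Xnr2 caps and 0.0617 ± 0.0693 in controls (SD, n = 4), and lhx1.S had 21.8 RPKM in Xnr2 caps and 0.0770 ± 0.0880 in controls. Those that fell were crx.L and crx.S, with 5.37 and 1.85 RPKM in Xnr2 caps, against 28.1 ± 8.85 and 21.1 ± 9.78 in controls. In Wnt8 plus Xnr2 caps 13 of 22 tested rose, beside 3.5% of all transcripts, again only through the treated library. Among them were foxa4.L at 346 RPKM, foxa4.S at 154, cer1.S at 102, lhx1.L at 53.1 and the organizer homeobox gene gsc.L at 10.4. In dissociated caps 6 of 15 tested rose, beside 0.145% of all transcripts: crx.L, crx.S, gsc.L, a numbered PKDCC model (Xelaev18026172m) and 2 numbered HESX1 models (Xelaev18001776m and Xelaev18003045m). Of these, crx.L had 452, 343 and 400 RPKM in dissociated 1 to 3 and 347 in Chordin caps, but 5.37 in Xnr2 caps. Xelaev18001776m had 78.2, 64.8 and 60.8 RPKM in dissociated 1 to 3, but 0.278 in Xnr2 caps. A rise of such list members thus does not by itself mark organizer or axial mesoderm tissue. All 6 calls were lost without control 3, without dissociated 1 or 2, and without the filter, at limma adjusted p of 0.0612 to 0.255, and all but that of Xelaev18001776m without control 2. The values of gsc.L, given above, include a listed 0 in control 1. Like Xelaev18026172m and Xelaev18003045m, gsc.L passed the filter only through the dissociated libraries, so the count of 6 is a description. In Cerberus caps 4 of 16 tested rose, beside 0.069% of all transcripts: cer1.S, the injected gene, and Xelaev18026172m, Xelaev18001776m and crx.L. The last 3 calls were lost without control 3 or control 4, at limma adjusted p of 0.0705 to 0.0834, and those of Xelaev18026172m and crx.L also without control 2. Of the 4, cer1.S and Xelaev18026172m passed the filter only through the Cerberus library, so this count too is a description. Between embryo parts 15 of 28 were called, all higher dorsally, beside 0.44% of all transcripts. Members such as admp.L, hhex.L and gsc.S reached the 5 RPKM of the rule only in the dorsal library, so this count too is a description.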

How the data were processed

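RNA was sequenced in 16 libraries of Xenopus laevis. Per the file headers, the authors computed the RPKM values on the JGI9.1 genome, 1 value per transcript. TopHat2 2.09 and DESeq are named in the submitters' processing notes; their roles, the annotation and the way reads were counted are not given in the sources used here. Tables that pair a library with its control drop low transcripts (mean below 1 RPKM, per the file headers). Values repeated between tables were identical, and 5 names listed more than once were left out.

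Whole reads were recovered from RPKM, each transcript's length being the number that makes its values whole within 0.01 reads. Such a length was found for 31582 of 31583 transcripts with 3 or more non-zero values. Differences were tested on log2(RPKM + 1) using limma 3.58.1 (R 4.3.3, mean-variance trend), over transcripts with a mean of 1 RPKM or more, and p-values were adjusted by Benjamini-Hochberg across the whole table. Names with no read in the unfiltered table were left out of fits with control 4. Ratios of 1 library to 1 have 95% exact binomial intervals on recovered reads (scipy 1.17.1) and no test. The fitting and read-recovery steps were tested on simulated data. In the simulated fits libraries had no matched sets and a lone treated library varied like controls, so neither point was tested.

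The 6 transcripts and the 5 gene lists were chosen with earlier results of these data known. Named beside the 6 were the 5 transcripts most alike to each by r, and up to 8 list genes called per comparison. Dissociated and control libraries of the same number deviated together from their group means (r = 0.584, 0.391 and 0.628), and the labels match them, so the numbers pair the samples. The fit reported has no block.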

Additional observations from a re-analysis of the deposited data

How the results depend on the processing

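Chordin model 3 and nog.L kept their direction and their calls in Xnr2 and in Wnt8 plus Xnr2 caps with a pseudocount of 0.1, quantile normalization, voom on recovered reads and each control left out. Leaving out the filter is no check in these 2 comparisons. Low transcripts were already dropped from the deposited values, so that fit equals the main fit. Models 1 and 2, with joined names, kept theirs under the same settings other than quantile normalization, which was not run for them. With the matched control set as a replicate block, which pairs the samples, nog.L rose by 2.37 in Xnr2 caps and by 2.43 in Wnt8 plus Xnr2 caps (limma adjusted p = 0.00714 and 0.00672). Voom with this block, chosen after seeing the data, gave nog.L values of 4.61 and 4.68 without a call. With 1 control left out, model 3 in Cerberus caps ran from 2.01 without control 3 to 2.19 without control 1. Its other settings gave 1.97 (quantile normalization) to 4.24 (voom with the block), and it was called only without control 1.

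Counts of calls in the small comparisons depended on the settings, and the cause was not tested. For dissociated caps the 50 calls became 1 without a filter, 239 with the block, 4 with voom and 512 with voom and block, and 0 to 374 with 1 library left out. The 69 of BMP4 caps became 16 at a pseudocount of 0.1, 44 with the block and 0 with voom and block, and 54 to 116 without 1 control. Chordin caps had 0 calls, 1 after quantile normalization, 2 with voom and 0 to 75 without 1 control. The 12 of Wnt8 caps became 0 at a pseudocount of 0.1, 2 without a filter, 0 with the block, 3 with voom with or without it, and 1 to 29 without 1 control. The 12 of Cerberus caps became 5 at a pseudocount of 0.1, 5 without a filter, 6 with the block, and 1 to 87 without 1 control. The 24 of FGF8 caps became 1 at a pseudocount of 0.1, 37 after quantile normalization, 1 with the block, 0 with voom and block, and 8 to 66 without 1 control. Of these highest counts, that of FGF8 came without control 4 and the others without control 1. Voom with the block left 356 of 611 calls in number for Xnr2 caps and 373 of 561 for Wnt8 plus Xnr2 caps. Of 50 list-gene calls, 21 held under all alternatives. Calls that further list genes gained under an alternative were not counted. In limma on log2(RPKM + 1) the block lost 7 of the 50 and changed no call of chordin or noggin. Voom with the block lost 15 of the 50, beside the nog.L calls given above.

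A pseudocount of 0.1 raises log2 ratios of rows near 0. Dorsal over ventral became 5.44 for models 1 and 2, 5.13 for model 3 and 3.33 for nog.L. Against control 4, chrd.1.L became 9.51 in Xnr2 caps and 9.29 in Wnt8 plus Xnr2 caps, and chrd.2.L 8.67 and 9.12. At equal medians, Wnt8 plus Xnr2 over Xnr2 was -0.35 for chrd.1.L, 0.31 for chrd.2.L and 0.19 for Xelaev18029538m. Depth limits chordin in controls, where 2 reads stand behind some values.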
